A study of Mus musculus with 10 samples.

Results

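Germline stem (GS) cells given FGF5 in culture were compared with GFRα1+ spermatogonia taken directly from adult mouse testes, using 5 of the 10 arrays of the series. The members were chosen by their labels alone: 2 arrays of cultured spermatogonia with FGF5 and 3 arrays of sorted GFRα1+ cells from wild-type (WT) testes. All were hybridized to the same 1-color Agilent array design, and 34760 of 55681 non-control probes were tested, namely those that exceeded the background clearly on all arrays of either group. The arrays ask how the transcriptome of the cultured cell differs from that of the cell it stands for in the animal.

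GS cells are cultured spermatogonia whose self-renewal depends on added FGF2 and GDNF. Here they came, per the study's methods, from C57BL/6 mice crossed with ICR, whereas the labels state C57BL/6 wild type. Both factors had been withdrawn for 3 days before 100 ng/mL FGF5 was given for 24 hr. Another 2 arrays of GS cells, treated alike but without FGF5, serve as context, and their comparison with the sorted cells uses the same sorted arrays. The sorted cells were the GFP-positive fraction obtained by fluorescence-activated cell sorting from Gfrα1-GFP knock-in mice of 2.5 months of age on a C57BL/6 background, so every sorted sample carries the reporter allele. The 3 sorted samples from *Fgf5*-/- mice were used only as an alternative reference. The design text counts the cultures and the sorts as independent experiments, and no donor or animal is named per array. Cultured and sorted samples lay on different slides. Slide, strain, removal of growth factors and culture itself therefore cannot be told apart, and the text dwells on differences of at least 4-fold and on groups of genes. In samples of many cells, fewer cells of a type and less RNA per cell cannot be told apart either.

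As background, GFRα1 is the co-receptor through which GDNF activates the RET kinase, and GDNF and FGF signaling together sustain a set of transcription factors in undifferentiated spermatogonia, among them *Etv5*, *Bcl6b*, *Lhx1* and *T*. Retinoic acid opposes this state: it turns on *Stra8* and *Kit* and commits the cells to differentiation, and cells limit it with the CYP26 enzymes that degrade it. Proliferating spermatogonia express the genes of DNA replication and mitosis periodically, so the abundance of these mRNAs follows the fraction of cells that cycle.

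Levels below are log2 signals with the 75th percentile of each array set to 0, a difference is GS cells with FGF5 minus sorted cells, and the brightest tested probe stands for a gene. A gene was called when limma gave an adjusted p under 0.05 (two-sided, Benjamini-Hochberg over all tested probes) and the difference was at least 2-fold. Within a group the arrays correlated at r = 0.983 in the cultures and 0.983 to 0.991 in the sorted cells, against 0.921 to 0.938 between the groups (across probes, which are not independent replicates). The median SD between replicates was 0.17 and 0.15. Among 17471 genes, 2389 (13.7%) were higher and 2342 (13.4%) lower in the cultures, and at least 4-fold differences were found for 567 (3.25%) and 670 (3.83%). These shares are the background for every count given below. The groups did not overlap for 74.0% of the genes, and the median difference over all genes was -0.10. Calls varied with signal strength. Among named-gene probes with a mean level above 0, 450 were higher and 1409 lower, and among those under -4, 895 and 275. Most calls under -4 came from probes that exceeded the background in 1 group only. Among the 1057 detected there on at least 1 array of each group, 234 were higher and 21 lower.

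**Figure D1:**
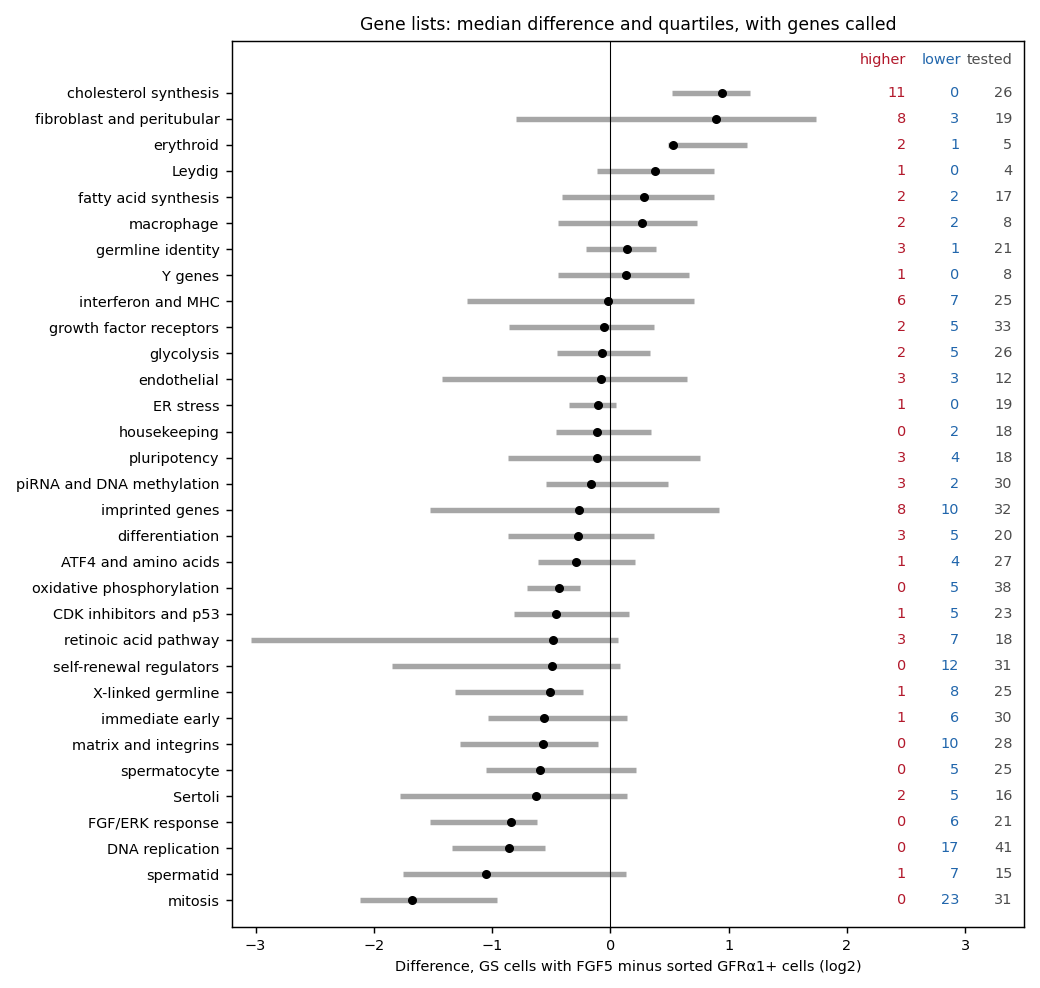
Differences of 32 gene lists between GS cells with FGF5 (n = 2 arrays) and sorted WT GFRα1+ cells (n = 3 arrays). Each row is a list, the point marks the median difference of its tested genes on the log2 scale, the bar spans their quartiles, and the numbers give the genes higher, lower and tested; mitosis lies farthest to the left, with 23 of 31 genes lower, and cholesterol synthesis to the right, with 11 of 26 genes higher.

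The plot of gene lists shows where the groups parted. Mitosis, spermatid, DNA replication and FGF response genes lay lowest in the cultures, with median differences of -1.68, -1.05, -0.86 and -0.84. The spermatid median was -0.13 among probes above background on all 5 arrays. Cholesterol synthesis and fibroblast genes lay highest, with medians of 0.94 and 0.89, the latter 0.67 among probes above background on all 5 arrays. Housekeeping genes had a median of -0.11, with 2 of 18 lower, *Hprt* 2.14-fold and *Gapdh* 2.04-fold. Without GS culture 1 the difference of *Gapdh* was -0.95, short of 2-fold.

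Both groups carried the germline program. *Ddx4*, an RNA helicase of germ cells, measured 5.22 and 5.17 in the cultures and 5.39, 5.35 and 5.47 in the sorted cells. *Dazl*, an RNA-binding protein needed for germ cell development, measured 5.04 and 5.01 against 4.91, 4.96 and 4.88. The difference was 0.10 with a standard error of 0.11. *Zbtb16* (PLZF), a transcription factor of undifferentiated spermatogonia, measured 6.04 and 5.78 in the cultures against 5.95, 5.78 and 5.85. *Lin28a* and *Bcl6b* differed by -0.19 ± 0.25 (SE) and 0.16 ± 0.40 (SE), neither past the threshold. Of 21 germline identity genes, 3 were higher in the cultures and 1 was lower.

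The exceptions within that list were large. *Dppa3* (Stella, a maternal factor of early germ cells; chr6:122580207-122580266 in mm9) measured 1.65 and 1.22 in the cultures and -3.52, -3.94 and -3.88 in the sorted cells, a 37.2-fold difference (limma adjusted p = 6e-04). In the cultures without FGF5 it stood at 1.71 and 1.75. *Tdrd9*, a helicase of the piRNA pathway that silences transposons, went the other way, from 3.26, 3.09 and 3.26 in the sorted cells to -0.80 and 0.01 in culture, a difference of -3.60 ± 0.26 (SE). *Rnf17* was higher by 1.22, and *Piwil4*, a PIWI protein, by 1.02. The *Piwil4* difference was 0.85, 0.94 and 0.98 without GS culture 1, sorted sample 2 or sorted sample 3, and was then not called. Among 30 genes of piRNAs and DNA methylation, 3 were higher, or 5 without GS culture 2, and 2 lower, including *Tet2* (1.98) and *Tdrd5* (1.33) above and *Dnmt1* (-1.40) below.

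Of 31 tested genes of stem cell self-renewal, 12 were lower in the cultures, 7 of these by at least 4-fold, none was higher and 19 were not called. *Tspan8*, *Shisa6* and *Pdx1* passed the filter through the sorted samples only, and among probes above background on all 5 arrays 9 were lower. The list median was -0.49, against -0.10 over all genes. Of the 12, 9 were called in each of the 5 fits with 1 array left out. *Gfra1*, counted among the 12, served for the sort and is no finding: it measured -2.39 and -0.38 in culture and 0.92, 0.96 and 1.08 after sorting. Its difference of -2.37 was not called without sorted sample 1 or 3 (-2.41 and -2.32).

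*Tspan8*, a tetraspanin found on the surface of stem-cell-rich spermatogonia (chr10:115286563-115286622), was at background in the cultures, at -6.34 and -5.77, and at 0.28, 0.38 and 0.40 in the sorted cells. It was at least 35.1-fold lower in culture (limma adjusted p = 0.00034). *Eomes*, a T-box factor (chr9:118394425-118394484), measured -4.25 and -3.10 against 0.85, 1.40 and 1.27, a 28.8-fold difference, and its 2 probes gave -4.90 and -4.85. *Eomes* was above background on all 5 arrays. *Shisa6* and *Pdx1* were at background in culture like *Tspan8*, at least 8.08-fold and 5.87-fold lower. *Cdh1* (E-cadherin), the adhesion molecule of undifferentiated spermatogonia, fell from 0.17, 0.41 and 0.39 to -3.48 and -2.86, a difference of -3.49 ± 0.22 (SE). *Nanos2*, the translational repressor that protects the stem cell state, measured 0.96 and 0.80 in culture against 2.70, 2.77 and 2.93. *Sall4* was lower by 1.48 on the log2 scale, and all 3 of its probes were lower.

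*T*, *Etv5* and *Lhx1* of this list, which growth factor signals sustain, had a different layout across the arrays. *Bcl6b*, named with them in the background, was not called and is given with the germline genes. The paper reports *Shisa6* and *Gfra1* as raised by FGF5 in culture. Both were called lower than in the sorted cells and are given above. Without FGF5 *Gfra1* measured -3.92 and -1.95, which overlapped the cultures with FGF5. *T* (Brachyury) measured -3.13 and -1.66 with FGF5, -6.58 and -4.70 without it, and 0.50, 0.71 and 0.55 in the sorted cells. *Etv5* followed the same order, at 3.18 and 4.46 with FGF5, 0.65 and -0.85 without, and 5.48, 5.64 and 5.60 after sorting. The cultures with FGF5 thus lay between those without and the sorted cells. Their differences from the sorted cells were -2.98 ± 0.44 (SE) for *T* and -1.76 ± 0.38 (SE) for *Etv5*. *Lhx1* measured -1.60 and 0.22 with FGF5, -4.23 and -3.37 without, and 0.52, 1.20 and 1.07 in the sorted cells, and its difference from the sorted cells was not called (limma adjusted p = 0.063); without GS culture 2 it was -2.53 and called. *Ccnd2* (-1.77) and *Ret* (-1.44) were called with all arrays. *Ccnd2* was not called without GS culture 1 (-0.91) or without any sorted sample (-1.74 to -1.81), and *Ret* was not called without GS culture 1 (-0.87) or sorted sample 3 (-1.40). *Id4* differed by -0.49 ± 0.22 (SE) and was not called. In most of the genes whose differences are given in this paragraph, GS culture 2 lay closer to the sorted cells than GS culture 1.

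**Figure D2:**
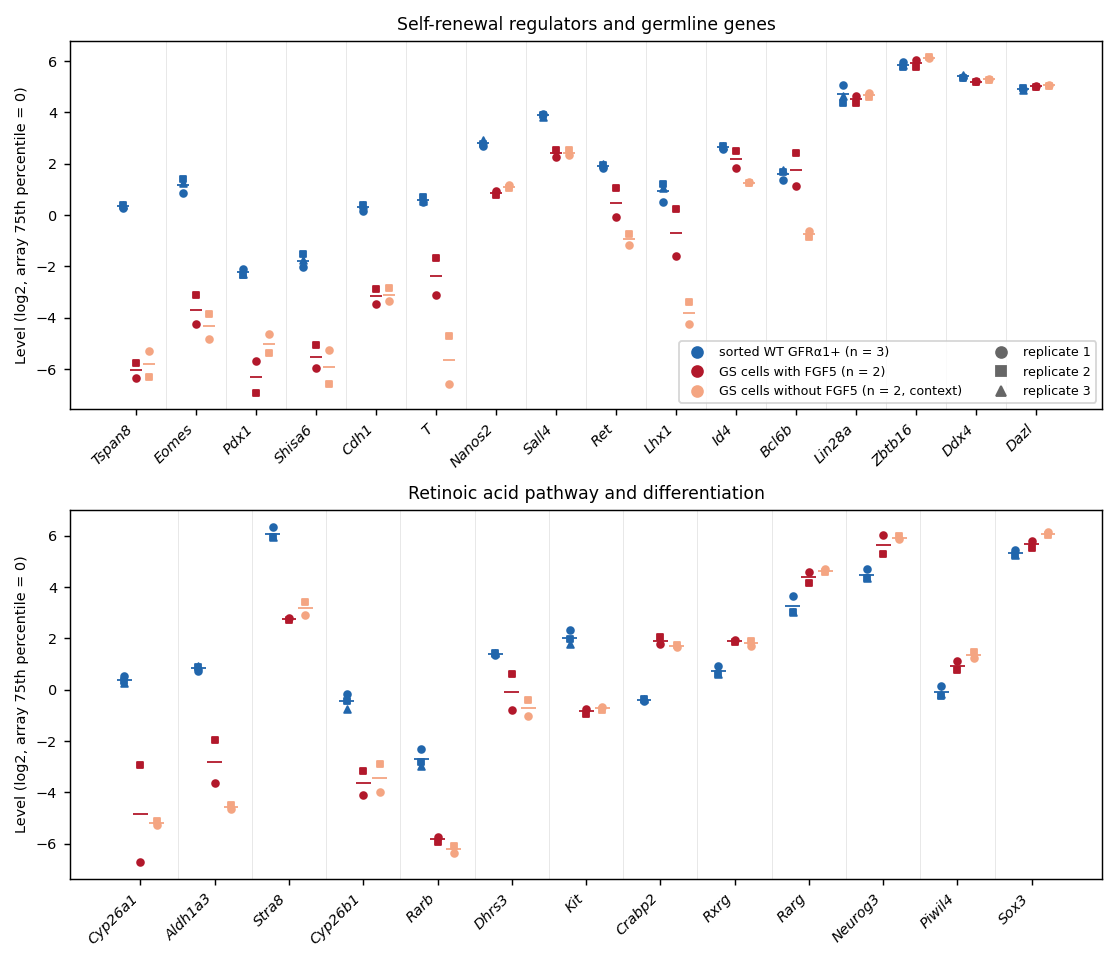
Level of self-renewal and germline genes and of retinoic acid and differentiation genes on each array, in log2 with each array's 75th percentile at 0 and 1 point per array for sorted WT GFRα1+ cells (3), GS cells with FGF5 (2) and GS cells without FGF5 (2, context). *Ddx4*, *Dazl* and *Zbtb16* lie together in all groups, whereas *Tspan8*, *Eomes*, *Stra8*, *Kit* and *Cyp26a1* lie lower in every culture than in every sorted sample.

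Of 18 tested genes of retinoid metabolism and response, 7 were lower in the cultures, 6 of them by at least 4-fold, 3 were higher and 8 were not called. *Rarb*, at background in culture, and *Cyp26a1*, not above background in GS culture 1, passed the filter through the sorted samples only. Among probes above background on all 5 arrays 5 were lower. The 6 large ones were called in every fit with 1 array left out. The median of the list was -0.49, and its summed linear signal was 80.8 and 75.8 in the cultures against 170.1, 136.0 and 134.0 in the sorted cells. Such sums cover all list genes on the array, here 20, and weigh bright genes most. A large part of the sorted sums came from *Stra8*, whose levels are given below. The 2 genes of this list whose promoters hold a retinoic acid element of the direct repeat type spaced by 5 bases (DR5) were both among those lower. In RefSeq (GRCm38.p6) such an element lies within 250 bases before to 50 bases after the start of 31 of 27025 genes (0.115%), searched on both strands, and of 2 of the 16 genes of this list with a promoter there. The search was made after the values were seen, and a match of letters is not a binding site. The stretches are shown because they hold the only such matches in this list, with the element in capitals:
*Cyp26a1*, chr19:37697756-37697807, plus strand: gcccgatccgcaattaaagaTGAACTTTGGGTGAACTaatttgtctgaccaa
*Rarb*, chr14:16575493-16575549, minus strand: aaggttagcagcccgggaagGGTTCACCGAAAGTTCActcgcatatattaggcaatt

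*Cyp26a1*, which degrades retinoic acid, measured 0.54, 0.33 and 0.27 in the sorted cells. In the cultures with FGF5 it was at -6.72 and -2.94, and without FGF5 at -5.26 and -5.10, and only GS culture 2 exceeded the background. The difference with FGF5 was -5.21 ± 1.09 (SE; limma adjusted p = 0.014). *Cyp26b1*, another such enzyme, was lower by 3.20 on the log2 scale, and *Rarb*, a retinoic acid receptor that retinoic acid itself induces, was at background in culture and at least 4.24-fold lower. After normexp background correction the difference of *Rarb* was -0.94 and not called. *Aldh1a3*, an enzyme that makes retinoic acid, fell from 0.74, 0.89 and 0.94 in the sorted cells to -3.65 and -1.95.

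Differentiation genes were called in both directions. *Stra8*, which retinoic acid induces before meiosis, measured 6.34, 5.97 and 5.95 in the sorted cells and 2.78 and 2.71 in culture, a 10.1-fold difference (limma adjusted p = 0.00087). *Kit*, the receptor of differentiating spermatogonia, measured 2.33, 1.97 and 1.79 after sorting and -0.74 and -0.95 in culture, a difference of -2.88 ± 0.20 (SE). In contrast, the receptor *Rarg* (4.61 and 4.14 against 3.66, 3.04 and 3.04) and *Neurog3* (6.02 and 5.28 against 4.71, 4.36 and 4.37), which mark spermatogonia poised to differentiate, were higher in the cultures by 1.13 and 1.17. These calls were less firm: *Neurog3* was at 0.80 without GS culture 1 and 1.11 without sorted sample 3, and *Rarg* at 0.90 without GS culture 1 and 1.02 without sorted sample 2 or 3, and none of these passed. *Sox3*, expressed in the same cells, differed by 0.36 and was not called. *Crabp2*, an intracellular retinoic acid binding protein, was clearly higher, at 1.78 and 2.05 in culture against -0.43, -0.35 and -0.37. In the whole differentiation list 5 of 20 genes were lower and 3 higher, the 3 being *Neurog3*, *Rarg* and *Piwil4*; none of these was called without GS culture 1 or sorted sample 3, and 1 without sorted sample 2.

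Markers of other testicular cells differed alongside these genes. Sertoli markers had a summed signal of 26.7 and 41.5 in culture and 73.6, 64.6 and 65.8 in the sorted cells, with 5 of 16 lower and 2 higher, and a median of -0.63, or -0.28 without GS culture 1. *Clu* was lower, at -2.55 and -1.61 against 2.58, 1.63 and 1.90. *Cldn11* and *Dhh* followed at -2.73 and -2.31. *Cldn11* was above background on 1 of 2 GS arrays and was not called with sorted *Fgf5*-/- samples as the reference. *Sox9*, the defining Sertoli cell factor, was higher in culture instead, at -2.06 and -2.42 against -4.601, -4.002 and -4.480; it was detected on 2 of the 3 sorted arrays. *Inhbb*, an inhibin and activin subunit, was the other higher gene, by 1.76. The part of Sertoli cell RNA in the retinoid and differentiation differences was not tested.

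Spermatid markers had sums of 6.39 and 7.21 in culture against 22.96, 21.03 and 18.89 in the sorted cells, and 7 of 15 were lower. Of the 15, 11 exceeded the background on all GS arrays and 14 on all sorted arrays, and 2 were at background throughout the cultures. Among probes above background on all 5 arrays 4 were lower, and the median was -0.13. *Tnp1*, which encodes a protein that packs spermatid DNA, measured -2.11 and -2.28 against 2.55, 2.55 and 2.42, and *Tnp2*, detected on 1 of 2 GS arrays, was lower by 4.01 on the log2 scale. The protamine genes *Prm2* and *Prm1* differed by -1.94 and -1.63, and without GS culture 1 or 2 neither was called (-2.06 and -1.83 for *Prm2*, -1.71 and -1.54 for *Prm1*). *Acr* was higher by 1.28. Without GS culture 2 the list's count was 4 and its median -0.39, and after normexp background correction the median was -0.14. Spermatocyte genes were lower for 5 of 25, including *Dmc1* (-2.03), *Hspa2* (-1.62) and *Brca2* (-1.52), and the count was 3 without GS culture 1 and 9 without GS culture 2. *Sycp1*, which marks meiotic chromosomes, differed by only 0.60 and in the other direction.

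Of the genes that FGF and the ERK kinase pathway induce, 6 of 21 were called lower in the cultures. All 21 had a negative mean difference, with a median of -0.84. The groups did not overlap for 13 of the 21, a smaller share than the 74.0% of all genes. Their summed signal was 43.0 in GS culture 1 and 114 in GS culture 2, against 169, 177 and 174 in the sorted cells. Without GS culture 2 the median was -1.60 and 16 genes were called, and without GS culture 1 the median was -0.35 and 3 genes were called. Without any 1 of the sorted samples the count was also 3. In the cultures without FGF5, compared with the same sorted samples, the median was -2.37.

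*Ccnd1*, the D-type cyclin that links mitogens to the cell cycle, had the largest difference in the list. It measured 3.35, 3.36 and 3.42 in the sorted cells, -1.79 and -0.09 in culture with FGF5 and -1.95 and -1.22 without it, so that the sorted samples lay close together and the cultures did not. The difference was -4.32 ± 0.50 (SE; limma adjusted p = 0.0031). *Spred2*, an inhibitor of the pathway, measured -1.83 and -1.42 against 0.04, 0.44 and 0.29. *Ccnd1*, *Spred2* and *Etv5* were called in all fits with 1 array left out. *Dusp6*, a phosphatase that acts on ERK, was at 2.39 and 4.20 with FGF5, -1.19 and -1.39 without, and 4.78, 4.95 and 4.78 in the sorted cells. Its difference from the sorted cells, -1.55 ± 0.53 (SE), was not called (limma adjusted p = 0.058); without GS culture 2 it was -2.45 and called. *Spry4*, another feedback inhibitor, overlapped between the groups, at -3.08 and -1.07 with FGF5 against -1.78, -1.28 and -1.29, and was called, at -1.62, without GS culture 2. *Dusp4*, *Etv4* and *Myc* were called, at -2.11, -1.53 and -1.52, and lost the call without GS culture 1 (-0.98, -0.71 and -0.83) and without any sorted sample (-2.06 to -2.14, -1.45 to -1.57 and -1.36 to -1.66).

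**Figure D3:**
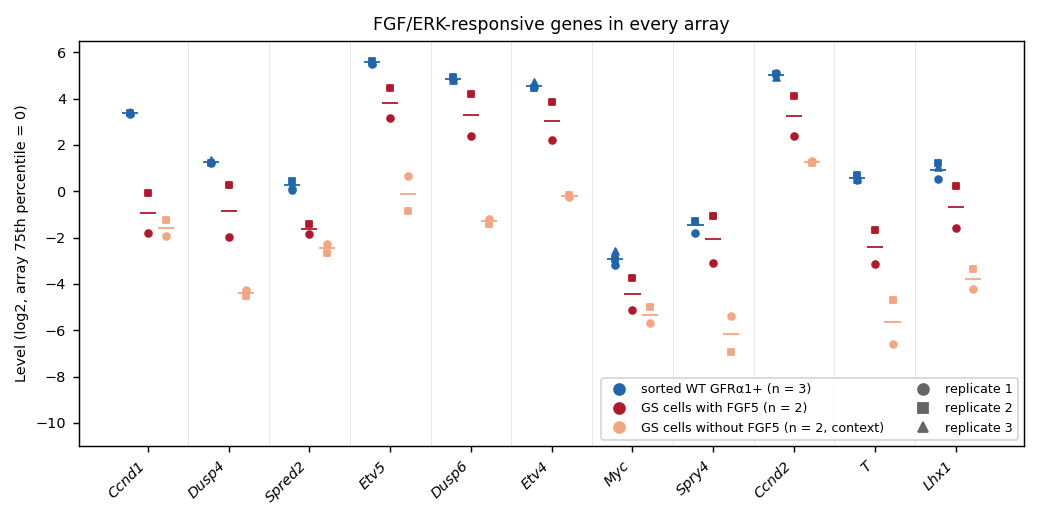
Levels of FGF and ERK response genes on each array, in log2 with each array's 75th percentile at 0 and 1 point per array for sorted WT GFRα1+ cells, GS cells with FGF5 and GS cells without FGF5. For *Dusp6* and *Etv5* the cultures with FGF5 lie between the cultures without it and the sorted cells, and for *Ccnd1* all cultures lie below 0 and the sorted samples between 3.35 and 3.42.

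Some receptors for these signals were called in each direction, no more often than genes in general for higher and about as often for lower. Of 33 growth factor receptors and co-receptors 2 (6.06%) were higher and 5 (15.2%) lower, against 13.7% and 13.4% of all genes. At least 4-fold differences were found for 1 and 3 of them, and the median was -0.06. *Fgfr1*, an FGF receptor gene, measured 3.95 and 4.01 in culture against 3.76, 3.59 and 3.48 and was not called, and *Fgfr2* (0.83) and *Fgfr3* (-0.86) stayed under 2-fold. Without GS culture 1 *Fgfr3* reached -1.07 and was called. The heparan sulfate carriers parted: *Sdc3* was higher in culture, at -0.01 and -0.03 against -2.19, -2.72 and -2.93, and *Gpc3* was lower, at -1.81 and -2.20 against -0.08, 0.31 and 0.32. Without sorted sample 3 the count of lower receptors was 3. Immediate early genes, which respond to mitogens and to handling, were higher for 1 of 30 (*Btg2*, 1.46) and lower for 6, among them *Klf2* (-1.62), *Myc* and *Rhob* (-1.47), with counts of 10 without GS culture 2 and 3 without sorted sample 1.

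Mitotic genes were the group in which most members differed. Of 31 tested, 23 were lower in culture, 10 of them by at least 4-fold, and none was higher. The median was -1.68, and the summed signal was 119 and 187 in culture against 443, 423 and 433 in the sorted cells. In the cultures without FGF5 the median was -1.72. Of the 23, 20 were called in every fit with 1 array left out, the others being *Anln*, *Aurka* and *Cdk1*, at -0.77, -0.96 and -0.87 without GS culture 1. *Anln* was also not called without sorted sample 1 (-1.13) or 3 (-1.28).

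*Mki67*, which encodes the proliferation antigen Ki-67, measured 4.94, 4.78 and 4.78 in the sorted cells and 0.16 and 1.84 in culture, a 14.3-fold difference (limma adjusted p = 0.0039). *Ccna2*, cyclin A2, measured 2.80, 2.84 and 2.98 against -0.54 and -0.08. Every sorted sample lay far above both cultures for these genes. *Nusap1*, a spindle protein, was lower by 2.84 on the log2 scale, the motor *Kif11* by 2.59, cyclin *Ccnb2* by 2.56, topoisomerase *Top2a* by 2.46 and the checkpoint kinase *Ttk* by 2.45. *Ccnb1* measured 1.97 and 2.30 in culture against 3.63, 3.79 and 3.89. *Cdk1*, the kinase that drives entry into mitosis, was lower by 1.29 on its brightest probe, but its 3 probes ranged from -1.29 to 1.76.

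The promoters of mitotic genes share short elements that data from other systems connect with their periodic expression. TTTGAA, the core of the cell cycle genes homology region (CHR), was found on either strand in the RefSeq window of 20 of 27 mitotic genes, against 20.2% of all 27025 genes. CCAAT was found in 22 of the 27, against 41.1%. Among the 19 mitotic genes called lower that have a promoter there, 15 hold TTTGAA and 15 hold CCAAT, and among the 7 not called, 4 and 6 do. These 2 motifs were chosen after the values were seen and can share at most 1 base where they meet. The promoters of *Ccnb2* and *Cdk1*, which hold both, and of *Ccnb1*, which holds CCAAT only, are given with the matches in capitals (ATTGG is CCAAT read on the other strand):
*Ccnb2*, chr9:70421555-70421741, minus strand: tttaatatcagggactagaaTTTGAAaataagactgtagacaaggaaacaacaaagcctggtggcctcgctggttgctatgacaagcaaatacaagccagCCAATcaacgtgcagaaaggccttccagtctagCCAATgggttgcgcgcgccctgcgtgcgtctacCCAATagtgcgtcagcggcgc
*Cdk1*, chr10:69352913-69353140, minus strand: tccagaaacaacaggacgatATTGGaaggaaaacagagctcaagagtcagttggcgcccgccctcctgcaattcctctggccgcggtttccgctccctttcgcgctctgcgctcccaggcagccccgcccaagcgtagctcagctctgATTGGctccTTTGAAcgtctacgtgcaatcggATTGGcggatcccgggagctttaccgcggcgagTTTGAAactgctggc
*Ccnb1*, chr13:100786529-100786605, minus strand: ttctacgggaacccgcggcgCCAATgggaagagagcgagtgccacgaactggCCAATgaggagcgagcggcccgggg

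Of 41 tested genes of DNA replication, 17 were lower and none higher, 38 had a negative difference, and the median was -0.86. *Gins1*, a subunit of the replicative helicase complex, measured 0.52 and 1.15 in culture against 3.07, 3.06 and 3.14. *Mcm3*, part of the helicase ring, measured 3.89 and 4.39 against 5.89, 5.83 and 5.89, and *Ccne1*, cyclin E1, was lower by 1.80 on the log2 scale. The 3 genes stood below every sorted sample on both cultures. Without GS culture 1 the count of lower genes was 10. *Pcna*, the sliding clamp, differed by -1.15, and by -0.89 without GS culture 1, when it was not called. Of 23 CDK inhibitor and p53 target genes 5 were lower, including *Cdkn2c* (-2.34), *Sesn2* (-2.01) and *Pmaip1* (-1.88), and 1, *Tnfrsf10b*, was higher, by 1.51. After normexp background correction the count of lower genes was 3, and *Cdkn2c* was at -0.75 and not called. Bright probes leaned to lower values in general: of the 11352 named-gene probes with a mean level over 0, 12.4% were lower.

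Cholesterol synthesis was the pathway that leaned the other way. Of 26 genes, 11 were higher in culture and none lower, 23 had a positive difference, and the median was 0.94. The summed signal was 371 and 398 in culture against 217, 218 and 209 in the sorted cells, and the median without FGF5 was 0.91. *Cyp51*, the sterol demethylase, measured 1.42 and 1.42 in culture and -0.49, -0.47 and -0.37 in the sorted cells, a 3.65-fold difference (limma adjusted p = 0.0012). *Msmo1*, a later enzyme of the pathway, measured 4.72 and 4.13 against 2.55, 2.74 and 2.69. *Idi1*, which makes an isoprenoid building block, measured 4.93 and 4.93 against 3.37, 3.43 and 3.35. No difference reached 4-fold. *Acat2* (1.48), *Dhcr7* (1.25) and *Sqle* (1.13) were also higher, and 7 of the 11 were called in each fit with 1 array left out. The others were *Insig1*, *Lss* and *Pmvk*, at 0.83, 0.79 and 0.94 without GS culture 2, and *Tm7sf2*, at 0.76 without GS culture 1 and 1.03 without sorted sample 1; *Insig1* was also not called without sorted sample 3 (1.25).

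CCAAT, which lies beside sterol elements in several known promoters of the pathway, was found in 17 of the 18 cholesterol genes with a RefSeq promoter window, against 41.1% of all genes, in 8 of 9 called and 9 of 9 not called. A sterol element by its usual consensus was found in 1 of the 18, against 0.755% of all genes, and CACGTG in 4 of the 18, against 8.09%. The matches of *Cyp51* and *Idi1* are in capitals:
*Cyp51*, chr5:4104702-4104746, minus strand: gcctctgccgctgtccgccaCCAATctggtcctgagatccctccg
*Idi1*, chr13:8885541-8885605, plus strand: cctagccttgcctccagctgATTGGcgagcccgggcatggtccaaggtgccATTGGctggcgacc

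Other metabolic lists were mixed. Fatty acid genes were higher for 2 of 17 and lower for 2: *Scd2* was higher by 1.06 and *Fasn*, the fatty acid synthase, lower by 1.54 on the log2 scale. *Scd1* differed by 1.13, and without GS culture 2 (0.73) or sorted sample 1 or 3 (1.07 and 1.12) it was not called. Glycolysis genes were higher for 2 of 26, *Eno2* (1.91) and *Slc16a1* (1.82), and lower for 5, led by *Pfkp* (-2.01; 0.17 on its other probe), *Egln3* (-1.84) and *Slc16a3* (-1.32). Oxidative phosphorylation genes were nearly all slightly below the sorted cells, 36 of 38, with a median of -0.43, and 5 passed 2-fold, led by *Ndufs3* (-1.26), *Ndufs7* (-1.21) and *Ndufa1* (-1.19). That count was 0 after quantile normalization and against sorted *Fgf5*-/- samples, and 3 without GS culture 1. Of 27 ATF4 and amino acid genes 4 were lower, *Vldlr* (-3.08), *Cth* (-2.38), *Sesn2* (-2.01) and *Chac1* (-1.98), and 1 was higher, the amino acid transporter *Slc38a2* (1.68). *Vldlr* was not called without sorted sample 3 (-3.02). Among 19 genes of stress in the endoplasmic reticulum only *Pdia4* was called, at 1.31, and not without GS culture 1 (1.06).

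**Figure D4:**
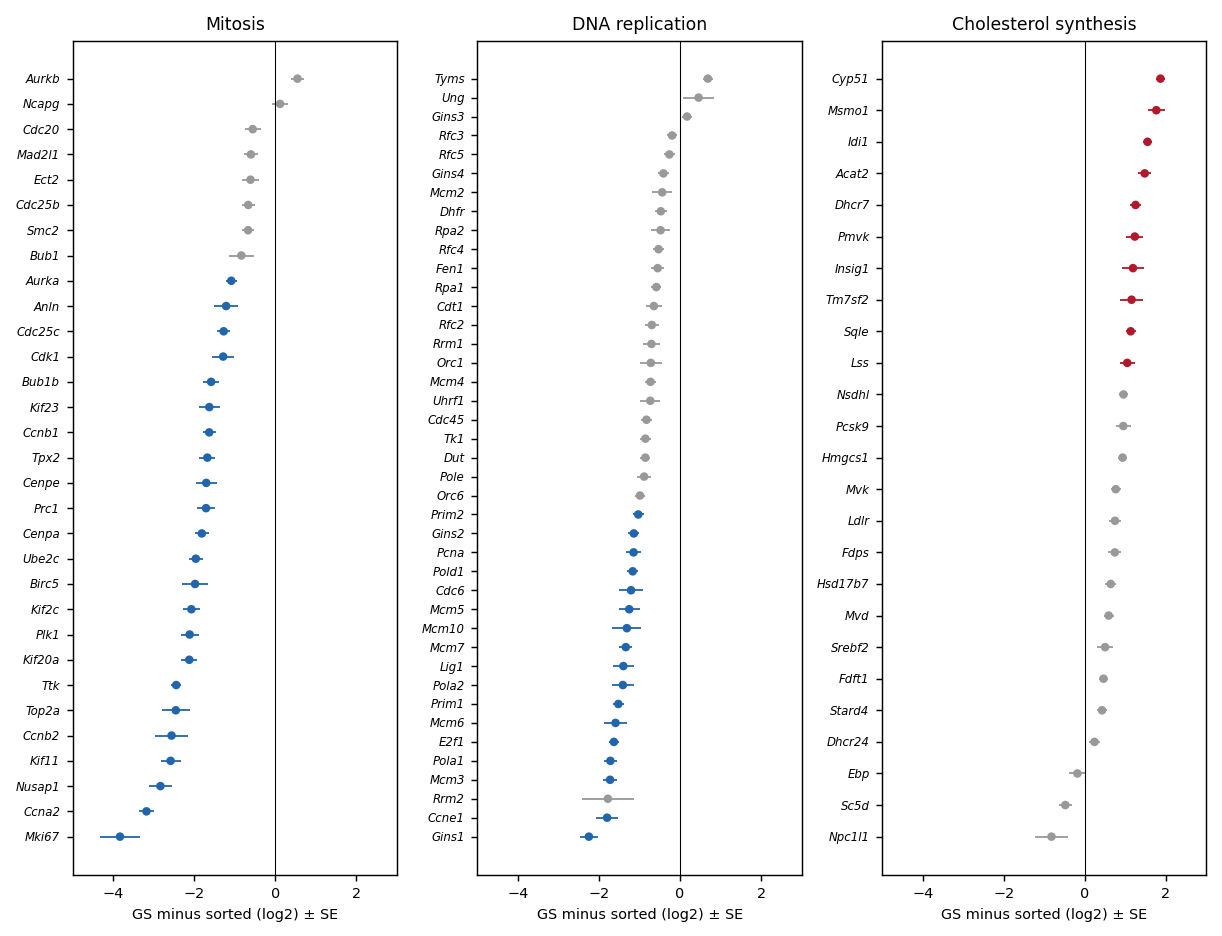
Difference between GS cells with FGF5 and sorted WT GFRα1+ cells for tested genes of mitosis, DNA replication and cholesterol synthesis (25 of 26 drawn for the last), on the log2 scale, with bars of 1 standard error from limma (2 against 3 arrays); red marks genes called higher, blue genes called lower and grey genes that were not called. Mitotic genes reach -3.83 at *Mki67*, replication genes -2.25 at *Gins1*, and cholesterol genes lie to the right of 0 with the exception of 3.

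Imprinted genes, which are expressed from 1 parental allele and whose marks are set in the germline, differed widely in both directions. Of 32 tested, 8 were higher and 10 lower, with 4 in each direction past 4-fold. Of the 32, 30 exceeded the background on all GS arrays and 29 on all sorted arrays. At background throughout the sorted samples were 2, and throughout the cultures 1. Among probes above background on all 5 arrays 5 were higher. *Mirg*, a non-coding RNA of the Dlk1-Dio3 imprinted region that hosts microRNAs, was the gene with the largest higher difference among those detected on each of the 5 arrays (chr12:110968992-110969051). Its probe measured 3.82 and 4.12 in the cultures, 3.92 and 4.10 without FGF5, and -2.17, -2.19 and -2.22 in the sorted cells, a 71.8-fold difference (limma adjusted p = 0.00017). That rests on 1 probe, since its other 2 tested probes gave -0.51 and -0.54 and were not called. *Meg3* and *Dlk1* of the same region were lower, by 1.53 and 1.44 on the log2 scale, and the mean of the probes of *Meg3* was -0.39 and not called.

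The genes of the other imprinted regions also split. *Usp29* was at background in the sorted cells and at least 13-fold higher in culture, and *Kcnq1ot1*, a long non-coding RNA that silences its neighbors, was higher by 2.33. *H19*, a maternally expressed non-coding RNA, measured 1.29 and 2.77 in culture against 5.03, 4.94 and 4.96 on its brightest probe, while its other probe gave 1.14; the mean of both was -0.91 and not called. *Ascl2* measured 0.88 and 1.23 against 3.94, 3.76 and 3.64, and *Grb10*, a brake on growth factor receptors, was at background in culture and at least 8.45-fold lower. *Igf2*, the fetal growth factor gene next to *H19*, differed by -2.17, and by -1.90 without GS culture 2, when it was not called. Of the 8 higher genes 3 were called in every fit with 1 array left out, the exceptions being *Airn*, *Dcn*, *Peg10*, *Peg3* and *Sgce*, with values between 0.84 and 3.47 in the fits that lost them, and the count of higher genes was 3 without GS culture 1, 5 without sorted sample 1 and 4 without sorted sample 3. Of the 10 lower, 7 were, the exceptions being *Igf2*, *Gnas* (-0.98 without GS culture 1) and *Plagl1* (-0.91 without GS culture 1 and -1.59 to -1.70 without a sorted sample).

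Interferon and antigen presentation genes were split in the same way, with 6 of 25 higher and 7 lower and a median of -0.03. *Ifitm3*, an interferon-induced membrane protein also known from primordial germ cells (chr7:148195591-148195650), measured 3.24 and 2.89 in the cultures, 3.18 and 3.16 without FGF5, and -4.89, -3.63 and -3.95 in the sorted cells, of which 2 of 3 exceeded the background. That is a 149-fold difference (limma adjusted p = 0.001). *Ifitm1* and *H2-K1*, a class I histocompatibility gene, were higher too, by 2.39 and 1.99. In contrast, *Rsad2* (viperin), an antiviral enzyme, measured -5.66 and -3.75 in culture, above background on 1 of 2 arrays, against -0.07, -0.71 and -0.32. The GTPase *Igtp* was lower by 2.54 on the log2 scale and *Irf9*, a transcription factor of the interferon response, by 1.64. All 6 higher genes and 6 of the 7 lower ones were called in each fit with 1 array left out, the exception being *Usp18* (-0.84 without GS culture 2).

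**Figure D5:**
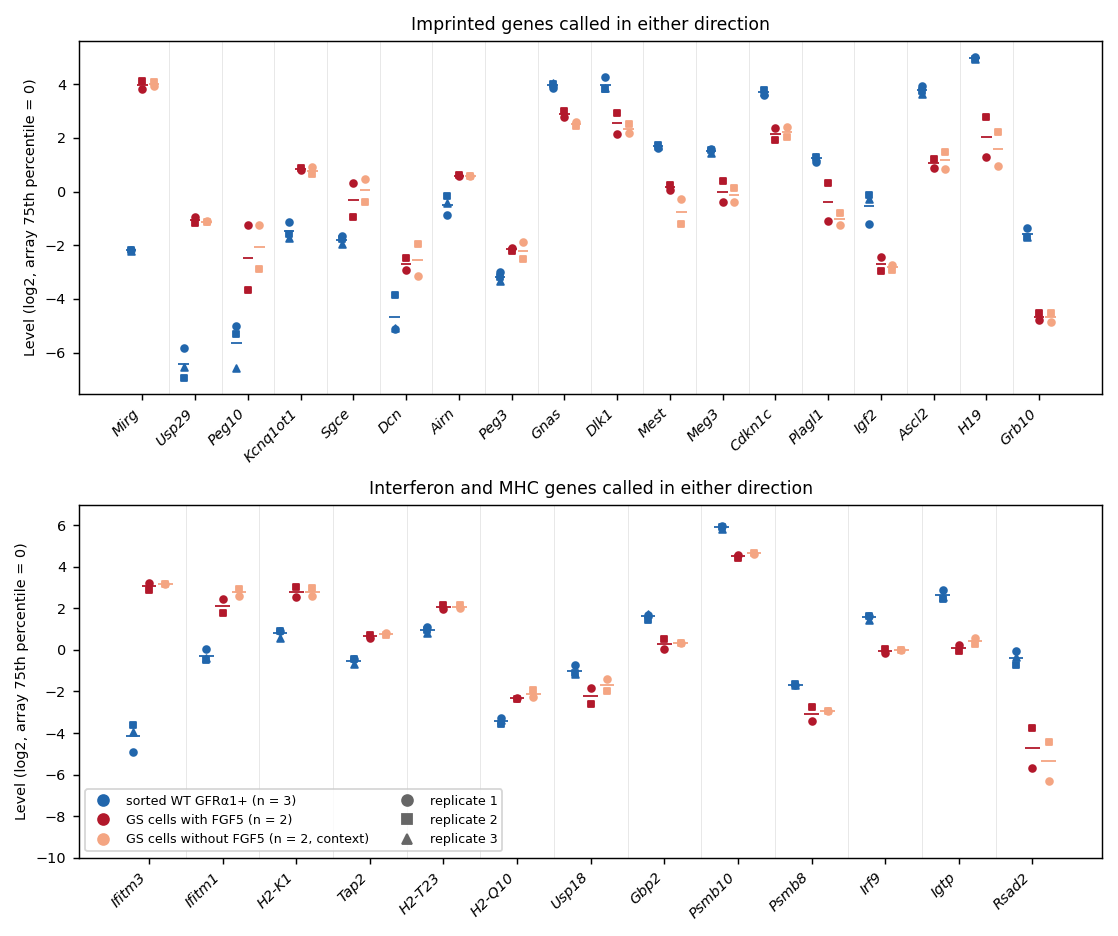
Levels of imprinted genes and of interferon and antigen presentation genes on each array, in log2 with each array's 75th percentile at 0 and 1 point per array for sorted WT GFRα1+ cells, GS cells with FGF5 and GS cells without FGF5. *Mirg* and *Ifitm3* lie at 2.89 or higher in all cultures and at -2.17 or lower in all sorted samples, while *Ascl2*, *H19* and *Rsad2* show the opposite order.

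Of 28 adhesion and matrix receptor genes, 10 were lower, none was higher and 18 were not called, with a median of -0.57, or -0.98 without GS culture 1. Beside *Cdh1*, *Itga1*, an integrin subunit for collagen, measured -2.72 and -2.54 in culture against -0.58, -0.05 and 0.01, although its other probe gave -0.52. *Cdh3* (P-cadherin) measured -1.68 and -1.03 against 0.54, 1.08 and 0.82. Of the 10, 7 were called in every fit with 1 array left out, the exceptions being *Itga3* (-0.97 without GS culture 1), *Lamc1* (-0.97 without GS culture 2) and *Nid1* (-1.83 to -1.95 without each sorted sample).

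Fibroblast and peritubular markers were higher for 8 of 19 and lower for 3. Of the 19, 17 exceeded the background on all GS arrays but only 14 on all sorted arrays. Among probes above background on all 5 arrays 4 were higher, and the median was 0.67. *Col6a1*, *Dcn* and *Sparc*, among the 8, were not called without sorted sample 3 (1.40, 1.79 and 1.37). *Postn*, also among them, was at 1.28 without GS culture 2. *Mgp*, a matrix protein, was at background in the sorted cells and at least 9.52-fold higher in culture, and *Col1a2*, a collagen chain, measured 0.03 and 0.41 against -3.58, -2.47 and -2.96. *Col3a1*, above background on 1 of 3 sorted arrays, was higher by 2.41, but by 0.46 and not called against the sorted *Fgf5*-/- samples. *Col1a1* overlapped between the groups, at 3.62 and 1.70 against 2.07, 1.67 and 1.76, and was called, at 1.78, without GS culture 2. *Pdgfrb* was at least 3.14-fold lower. The summed signal of the list did not separate the groups, at 49.9 and 37.2 in culture and 55.3, 49.6 and 48.7 in the sorted cells, and without sorted sample 3 the count of higher genes was 5. Whether feeder cells were present in the cultures used for the arrays is not given in the sources used here, and the part of fibroblast RNA in the other results was not tested.

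Markers of blood and vessel cells were mixed and mostly dim. *Ptprc* (CD45), which defines leukocytes, was at -4.29 and -4.22 in culture and -3.78, -5.17 and -4.52 after sorting, where 1 of 3 arrays exceeded the background. Macrophage genes were higher for 2 of 8 (*Csf1r*, 1.42, and *Cd68*, 1.24, or 0.88 and not called without GS culture 2) and lower for 2 (*Mrc1*, -2.30, and *H2-Ab1*, -1.48), with sums of 5.95 and 5.89 against 3.26, 3.85 and 4.13. Endothelial genes were higher for 3 of 12, or 5 without GS culture 1, and lower for 3. *Vwf* was higher by 3.91, *Kdr* by 1.24 on its brightest probe and lower by 1.74 on its other, *Pecam1* by 1.02 (0.95 and not called without sorted sample 2), and *Cdh5* was lower by 2.23 on the log2 scale. Erythroid genes were higher for 2 of 5, *Hba-a2* (1.39) and *Hba-a1* (1.16; 0.96 to 1.19 and not called without GS culture 1 or 2 or sorted sample 3), and *Alas2* was at least 4.13-fold lower. Of 4 Leydig cell genes tested *Cyp17a1* was higher, by 1.70, and *Star* differed by 0.60.

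Pluripotency genes were higher for 3 of 18, *Dppa3*, *Sox2* (2.17; above background on 2 of 3 sorted arrays) and *Gdf3* (1.40), and lower for 4, including *Klf2*, *Dppa5a* (-1.37; -0.96 and not called without GS culture 1) and *Prdm14*, which was at background in culture and at least 2.30-fold lower. Germline genes of the X chromosome were lower for 8 of 25, with the homeobox genes *Rhox3a* (-2.87 and -2.92 against 0.04, 0.28 and 0.25), *Rhox5* (-2.19) and *Rhox9* (-1.77) leading. *Magea4* was at least 4.22-fold higher. Of 8 genes of the Y chromosome 1, *Zfy2*, was higher, by 1.09, or 0.93 and not called without GS culture 2.

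Across all genes, irrespective of list, among those detected above background on each of the 5 arrays, the largest higher differences after *Mirg* belonged to *Sting1*, the sensor adaptor of the cytosolic DNA response, at 1.94 and 1.82 in culture against -3.80, -3.66 and -3.86 (50.2-fold), and to *Sfi1* (39.9-fold). *Sfi1* was spread over -3.55, 0.31 and -1.27 in the sorted cells and was not called without GS culture 1 or 2 (5.29 and 5.34). *Dppa3*, *Fam163a* (25.4-fold), *9930105H17Rik* (21.8-fold), *Gm5067* (20.3-fold), *Olfr1466* (19.11-fold), *Slc47a1* (17.1-fold) and *Glmp* (17.1-fold) completed the 10. For *Slc47a1* the cultures differed widely, at -0.62 and 1.84.

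The largest lower difference of this kind belonged to *Gm9* (chrX:34749380-34749439), at 2.30, 2.28 and 2.31 in the sorted cells and -4.56 and -3.52 in culture (80.5-fold). *Tex19.2*, a gene of the germ cell Tex19 family, followed at 4.68, 4.75 and 4.80 against -0.77 and -1.90 (67.8-fold). *Cd93*, a surface glycoprotein, measured 2.91, 2.85 and 2.94 against -3.78 and -1.18 (41.7-fold), and -5.77 and -4.76 without FGF5. *Rbbp9* (43.5-fold) was that low on 1 probe, its other giving -0.53. The others were *Zmynd15* (41.8-fold), the homeobox gene *Irx3* (29.4-fold), *Eomes*, *LOC100862557* (28.7-fold), *Tnp1* and *Wfdc10* (25.8-fold).

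Genes at background throughout 1 group had still wider gaps. *5830417I10Rik* measured 4.267, 3.996 and 4.077 in the sorted cells and was at background in culture, at least 477-fold lower, followed by *Svs5* (at least 196-fold), *Trim12a* (at least 138-fold), *C78283* (at least 86.5-fold) and *Gm5622* (at least 59.8-fold). In the other direction *AI594671* was at least 28.3-fold higher, *Gpr142* 23.8-fold, *Tas1r2* 19.8-fold, *Map1b* 16.9-fold and *Abcb11* 16.5-fold. For *Trim12a* and *Map1b* the other probe gave -3.69 and 1.56. A strain difference in the sequence that a probe matches cannot be told apart from expression here.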

How the data were processed

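Total RNA (25 ng) of each sample was labeled with Cy3 and hybridized to its own Agilent mouse array. The deposited scanner files hold linear signal intensities and background flags, and the authors also deposited a table of log2 values made in GeneSpring with a floor of 1.0 and a shift to the 75th percentile, without baseline transformation. The deposited log2 values equal the log2 of the scanner's processed signal intensity minus 1 constant per array. Feature Extraction is given as version 10.7.1.1 in the file headers and 10.7.3.1 in the submitters' processing notes. Between 56.2% and 63.9% of probes were well above background per array, and the number of arrays limits the precision.

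Groups follow the sample titles. The log2 table was fitted with limma 3.58.1 in R 4.3.3 (lmFit and eBayes, two-sided, Benjamini-Hochberg adjustment over the 34760 tested probes), with 2 GS and 3 sorted WT arrays. On simulated data with 200 changed probes of 34760, the fit recovered 0%, 52% and 81% of log2 changes of 1, 2 and 3. In the real data 52.9% of the probes passed the adjusted p, and the Benjamini-Hochberg cutoff is less strict when more probes change. These rates therefore do not describe this comparison, and a larger changed share was not simulated. A gene at background on every array of 1 group has only a bound ("at least"), taken against the lowest signal that exceeded the background clearly. Of 33256 probes with a gene symbol, 27503 took it by accession from a RefSeq table of GRCm38.p6, which renamed 2016. The others kept the symbol of the files. Probe coordinates are the files' mm9. Promoter sequences are from RefSeq (GRCm38.p6).

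Named with values were the 10 genes with the largest difference in each direction among called genes above background on all 5 arrays, the 5 with the largest bound in each direction, up to 3 called genes per list in its leading direction and 1 in the other, and a fixed list of marker genes; *Hbb-b1* of that list was not tested here. List counts include 1 retinoid and 1 cholesterol gene that are not reported by name here. Other called list members were named after their values were seen. The members and the 32 gene lists were chosen with earlier results of these data known. Alternatives covered scaling, background correction, filters, variance models, a replicate block, averaging the probes of a gene, sorted *Fgf5*-/- samples as reference and leaving out each array. Replicate numbers are not stated to pair cultures with sorts, and deviations of equally numbered arrays did not correlate (r = -0.01 and -0.003).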

Additional observations from a re-analysis of the deposited data

How the results depend on the processing

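Over 19 settings, 147 of the 247 called genes of the lists and named genes were called in every setting in which they were tested. A gene that the filter of a setting removed was not counted as lost there. No called gene of these changed direction except *Kdr* (-0.25) and *Cdk1* (0.20) when the probes of a gene were averaged. Scaling to the percentile over probes above background on all 5 arrays moved the median of all genes by 0.21 and made 65.0% of the calls higher, against 50.5% as reported. With the replicate number as a block 10081 probes passed the adjusted p, against 18395; the numbers do not pair the samples.

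Several counts and single calls depended on the background correction and the filter. After normexp correction *Cdkn2c* (-0.75), *Rhob* (-0.79), *Pdgfrb* (-0.49), *Prdm14* (-0.50), *Alas2* (-0.91) and *Cdh5* (-0.97), among others, stayed under 2-fold and were not called. With normexp, probes at least 2-fold higher and lower numbered 3266 and 2332 (6638 and 3729 as reported), those at least 4-fold 267 and 323 (1573 and 1041), genes 2-fold higher 1410, and genes 4-fold higher and lower 151 and 248. Asking for probes above background on all 5 arrays gave 3788 probes 2-fold higher, 452 and 528 probes 4-fold higher and lower, 1548 genes 2-fold higher, and 219 and 378 genes 4-fold. With differences replaced by their bound, 865 probes and 375 genes were 4-fold higher. At 8-fold 345 and 381 probes and 153 and 249 genes remained past the threshold. Fibroblast genes higher numbered 4 when all 5 arrays had to be above background. FGF response genes lower numbered 3 with the percentile over probes above background on all 5 arrays, with no filter, with the replicate block and against sorted *Fgf5*-/- samples. The cause was not tested.

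With 1 array left out, probes past the adjusted p ranged from 13453 to 16525, genes 2-fold higher from 2049 to 2451 and lower from 2119 to 2794, genes 4-fold higher from 530 to 763 and lower from 586 to 911, mitotic genes lower from 20 to 24, replication genes lower from 10 to 23, FGF response genes lower from 3 to 16, cholesterol genes higher from 9 to 11, fibroblast genes higher from 5 to 9, self-renewal genes lower from 9 to 14, retinoid genes lower from 6 to 7 and matrix genes lower from 9 to 13. A lone GS array was assumed to vary like the sorted ones.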

Other observations

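Probes without a gene symbol that the array annotates as large intergenic non-coding RNAs, which were set apart after their values were seen, were higher in the cultures more often than probes of named genes. Of 7743 tested, 2752 (35.5%) were higher and 363 (4.69%) lower, with a median difference of 0.80, against 3185 (13.5%) higher and 3080 lower of 23567 named-gene probes. They were dimmer, with a median level of -3.03 against -0.17. Among probes detected on at least 1 array of each group, 1923 of 6681 were higher, against 2501 of 22344 named-gene probes. Among probes with a mean level over 0, 183 of 881 (20.8%) were higher, against 450 of 11352 (3.96%) of the named-gene probes, and at levels from -2 to -1 the counts were 254 of 932 (27.3%) and 404 of 2544 (15.9%).

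Deposited spike-in controls had median levels of -1.67 and -1.76 in the cultures and -2.10, -1.07 and -1.75 in the sorted samples. The groups overlapped on these controls, but with such a spread among the sorted samples this cannot show whether the scales match.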
